A study of Mus musculus with 128 samples.

Results

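This section describes how gene expression differed between brown and white fat of the same LG/J mice on the low-fat diet. The members were chosen by table and animal number: the libraries of interscapular brown fat were paired with those of reproductive white fat carrying the same number, and animal 350 was left out. That gave 30 libraries in 15 pairs, of 128 libraries in the whole series. The pairs came from 3 females and 4 males of 20 weeks, and from 4 females and 4 males of 30 weeks. All were inbred LG/J mice on the diet labelled lowfat, and no other treatment is named in the labels. The series also holds SM/J mice and a diet labelled highfat, with 4 biological replicates for each strain, diet, age, sex and tissue. The labels do not say which pad was taken as reproductive fat in each sex.

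Brown adipocytes burn fatty acids and glucose to make heat. They carry many mitochondria whose inner membrane holds uncoupling protein 1, which lets protons return without making ATP, and cold switches them on through noradrenaline, beta-adrenergic receptors and cyclic AMP. White adipocytes store triglyceride in 1 large droplet and release hormones such as leptin, and white pads also hold many macrophages, fibroblasts and, on their surface, mesothelial cells.

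Each deposited value is a normalised count per gene and library, fractional and never negative, and the brown and white tables had been filtered and scaled separately. There were 12904 genes in the brown table, 14110 genes in the white table and 12581 in both. All 30 libraries were therefore rescaled together so that the median gene had the same level, which divided brown values by 0.879 to 0.927 and white values by 1.10 to 1.14. The deposited library totals ran, to 6 digits, from 18504600 to 20861500 in brown and from 19295700 to 21311100 in white, but the number of reads behind a value is unknown. Libraries of the same depot, sex and age, with those of animal 350 included, correlated across genes at 0.925 to 0.991. The brown library of animal 524, a female, stood furthest from its group, with the highest level of 17 of 19 tested macrophage markers and of all 11 antigen presentation genes. The brown library of animal 349, also a female, had the highest level of both tested skeletal muscle markers. The white library of animal 350, labelled female, was nearer the male than the female mean for 65.5% of the 660 genes that differed by sex in white fat, against at most 12.9% in the other females. Its brown library was nearer the male mean for 5.21% of 96 such genes, within the 13.5% of the other females.

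More genes were over 2-fold higher in white than in brown fat. By limma on the 15 within-animal differences of log2(value + 1), 1082 genes (8.6% of 12581 tested) were over 2-fold higher in brown fat and 1474 (11.7%) were over 2-fold higher in white fat at a Benjamini-Hochberg adjusted p under 0.05, together 20.3%. Against a difference of 0, 5049 genes (40.1%) were higher in brown and 5185 (41.2%) in white, together 81.3%. For 2142 genes (17%) every brown library lay above every white library, and for 1772 (14.1%) the reverse held, together 31.1%. The split depends on the scaling: with libraries brought to the same total, 772 genes were over 2-fold higher in brown and 2067 in white, so the brown share of these calls went from 42.3% to 27.2%. With the values as deposited the counts were 739 and 2182 (25.3% in brown). Those scalings moved the median difference of all genes from -0.01 to -0.30 and -0.33. A level shared by a whole table and the depot itself cannot be told apart, and in bulk tissue more cells of a type and more RNA per cell cannot be told apart either. In what follows, "rose" or "higher" is said of genes that passed the over-2-fold test unless another test is named, each difference is the log2 value of brown minus that of white, given ± its standard error, and levels are not per gene length. Levels of genes in both tables, and sums of markers, are rescaled values, and levels of genes listed in a single table are given as deposited.

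Brown fat carried the thermogenic genes at levels far above white fat. Of 27 genes on a list of brown and thermogenic markers, 21 were in both tables, 20 were over 2-fold higher in brown fat, and the median difference was 4.48, where all genes had -0.01 and 8.6% were called in that direction. The other tested member was Eva1a, at 1.19 ± 0.11 with an adjusted p of 0.2. Bmp8b, Cpt1b, Dio2, Elovl3 and Slc27a2 were listed in the brown table only, and Gk in neither. The depots did not overlap for 20 of the 21 genes, where 17% of all genes stood apart in that direction. Ucp1, the uncoupling protein itself (chr8:83290352-83298452, mm10), ran from 63970.1 to 179120 (median 98008) in brown libraries and from 6.77 to 1227 (median 111) in white libraries. The white values were spread far more widely than the brown ones, from a female (animal 587) to another female (animal 524), yet no white library reached the brown range. The difference was 9.71 ± 0.45, or 838-fold (limma over-2-fold test, adjusted p = 4.37e-11, higher in 15 of 15 animals).

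Cidea, a lipid droplet protein abundant in brown adipocytes, ran from 51727 to 95207 (median 68764) in brown fat and from 111 to 1527 (median 339.8) in white fat. Its highest white value was again that of animal 524, and the depots did not overlap. The difference was 7.45 ± 0.22 (limma adjusted p = 2.39e-13). Fabp3, a carrier of fatty acids, ran from 8331 to 28415 (median 19751) in brown and 13.6 to 613 (median 131) in white libraries, a difference of 7.20 ± 0.30. Pank1, which starts the synthesis of coenzyme A, was at 6925 to 13138 (median 11002) in brown and 57.5 to 155 (median 97.0) in white libraries, a difference of 6.84 ± 0.10. Pank1 varied little within a depot, and its standard error was less than that of Ucp1. Acot11, an acyl-CoA thioesterase, differed by 6.34 ± 0.20, and Coq8a, which serves coenzyme Q synthesis, by 5.62 ± 0.07 with white values of only 712 to 1053 (median 960) beside 31080.3 to 59949.8 (median 44744) in brown. The other genes with the largest brown differences were Ntrk3, the receptor of neurotrophin-3 (5.996), Kng2, a kininogen (5.74), Perm1, a muscle and fat regulator of oxidative genes (5.47), and the myosin Myo5c (5.34). None of these 12 genes overlapped between depots, and all 12 were higher in 15 of 15 animals.

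**Figure D1:**
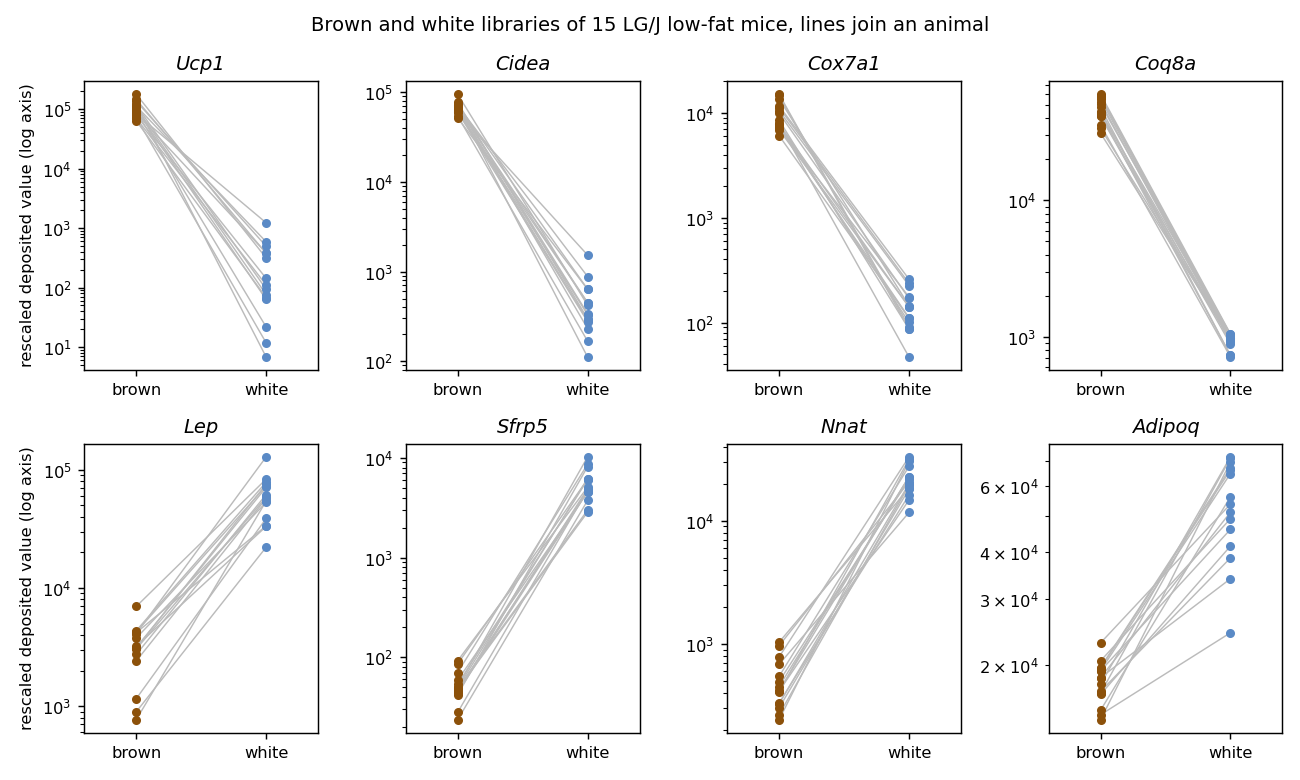
Values of 8 genes in the 15 LG/J low-fat mice, with the rescaled deposited value on a log axis, brown libraries on the left, white libraries on the right and a line for each animal. Ucp1 ran from 63970.1 in brown fat and reached 1227 in white fat, Lep lay the other way, and Adipoq differed by -1.53 without overlap.

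The regulators of this programme were also higher in brown fat. Ppargc1a, the cold-induced coactivator of mitochondrial genes, differed by 4.33, its relative Ppargc1b by 3.71, the nuclear receptors Ppara, Esrrg and Esrra by 5.01, 4.58 and 2.39, and Prdm16, which commits cells to the brown fate, by 2.51. Ebf2, an early factor of brown precursors, differed least among those called, at 1.38. Otop1, a proton channel, ran from 5598 to 10696 (median 7312) in brown and 31.7 to 949.7 (median 342) in white libraries, and the depots stayed apart.

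Promoters are shown for brown and white marker genes, which differed in opposite directions, and for respiratory genes. The sequences are the 250 bases before the RefSeq start of each gene (GRCm38.p6, 5′ to 3′ on the gene's strand). They lie at chr8:83290098-83290347 (plus strand) for Ucp1, chr7:30183921-30184170 (plus) for Cox7a1, chr6:29059971-29060220 (plus) for Lep, chr9:50603850-50604099 (minus) for Sdhd and chr13:74350241-74350490 (minus) for Sdha. Capitals mark matches on either strand to any of 4 motifs: TNAAGGTCA (ERR element), TGACGTCA (cAMP response element), the NRF1 motif (GCGCA and GCGC with any base between them) and TTGCGCAA (the palindrome bound by C/EBP factors).
Ucp1: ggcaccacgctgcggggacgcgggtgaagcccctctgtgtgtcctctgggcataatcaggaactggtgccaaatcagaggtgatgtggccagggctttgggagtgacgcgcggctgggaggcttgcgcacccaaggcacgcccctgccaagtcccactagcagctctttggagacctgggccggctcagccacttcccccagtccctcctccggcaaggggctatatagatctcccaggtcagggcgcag
Cox7a1: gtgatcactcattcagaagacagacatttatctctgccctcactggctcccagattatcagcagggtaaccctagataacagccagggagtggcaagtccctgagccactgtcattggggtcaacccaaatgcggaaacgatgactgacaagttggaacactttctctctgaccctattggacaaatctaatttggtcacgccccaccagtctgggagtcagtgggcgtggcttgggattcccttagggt
Lep: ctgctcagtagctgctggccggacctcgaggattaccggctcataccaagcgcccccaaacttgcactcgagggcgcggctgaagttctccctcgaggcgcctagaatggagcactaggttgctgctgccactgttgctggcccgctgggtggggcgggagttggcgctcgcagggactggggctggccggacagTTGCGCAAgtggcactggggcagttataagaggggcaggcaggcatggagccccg
Sdhd: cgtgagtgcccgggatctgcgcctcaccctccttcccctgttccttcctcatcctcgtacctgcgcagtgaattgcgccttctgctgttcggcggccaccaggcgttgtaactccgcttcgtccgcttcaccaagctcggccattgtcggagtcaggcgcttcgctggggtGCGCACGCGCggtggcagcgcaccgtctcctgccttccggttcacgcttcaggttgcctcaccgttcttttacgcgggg
Sdha: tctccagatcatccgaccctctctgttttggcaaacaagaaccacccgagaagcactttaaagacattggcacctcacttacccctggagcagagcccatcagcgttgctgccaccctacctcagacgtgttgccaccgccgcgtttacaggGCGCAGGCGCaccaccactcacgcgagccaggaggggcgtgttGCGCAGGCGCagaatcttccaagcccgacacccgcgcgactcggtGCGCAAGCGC
The Lep promoter held the C/EBP palindrome from base -55 to base -48, counted from the start. That motif stood in 22 of 9518 promoters of tested genes (0.231%). Sdhd held 1 NRF1 match and Sdha 3, but both had been picked among the respiratory chain genes with such a match. Of the 36 respiratory chain genes with a promoter in the RefSeq table, 6 held at least 1 (16.7%). NRF1 matches stood in 8.54% of the promoters of all tested genes, in 8.76% of those over 2-fold higher in brown fat and in 3.47% of those over 2-fold higher in white fat. The cAMP response element was in 2.83% of tested promoters, the ERR element in 0.599%, and matches of different motifs overlapped in 4 promoters. No match of the 4 motifs lies in the windows printed for Ucp1 and Cox7a1, or in that of Cox8b, which is not printed. A match is a run of letters and was not tested for binding.

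Genes of the mitochondrial energy pathways were higher in brown fat. All 48 tested respiratory chain genes were over 2-fold higher in brown fat, against 8.6% of all genes, with a median difference of 2.80. None of the 48 overlapped, where 17% of all genes stood apart in that direction. Most lay in a narrow band: the smallest difference was that of Atp5j, an ATP synthase subunit (1.38), and the next largest after the tissue-specific subunits was that of Cox5a (3.62). Among complex I genes, Ndufs1 differed by 3.26 and Ndufa2 by 1.77. The succinate dehydrogenase genes Sdha, Sdhb, Sdhc and Sdhd differed by 2.99, 3.21, 2.48 and 3.13, and the carrier Cycs, cytochrome c, by 3.20. Sdhd ran from 13886 to 20154 (median 17165) in brown and 1414 to 2919 (median 1952) in white libraries. The ATP synthase genes Atp5a1, Atp5b and Atp5c1 differed by 2.69, 2.63 and 1.90. Genes encoded by the mitochondrial genome, and those of the X and Y chromosomes, are not analysed here.

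All 15 tested genes of the citric acid cycle and the pyruvate dehydrogenase complex were over 2-fold higher in brown fat, against 8.6% of all genes. Their median was 3.10 and none overlapped, where 17% of all genes stood apart in that direction. Sucla2, the ATP-forming subunit of succinyl-CoA ligase, differed by 4.19, and Suclg2, the GTP-forming one, by 1.58, the smallest of the list. In fatty acid oxidation 18 of 20 genes were higher in brown fat and 1 in white fat, against 8.6% and 11.7% of all genes. Acadvl, Acaa2, Acadl and Hadhb, enzymes of the beta-oxidation spiral, differed by 4.40, 4.18, 4.09 and 4.01.

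Animal 524 lay at the ends of both ranges in these pathways. Its white library was the highest for 14 of 15 citric acid cycle genes, 29 of 48 respiratory chain genes and 14 of 20 oxidation genes, and its brown library was the lowest for 9 of 15 citric acid cycle genes and 14 of 20 oxidation genes. At the other end, the white library of animal 613 was the lowest for 37 of 48 respiratory chain genes. Without animals 349 and 524 the counts in the respiratory chain (48), citric acid cycle (15), oxidation (19, both directions together) and brown marker (20) lists were the same.

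For several proteins with closely related forms the depots differed in which form was raised. Cpt1a, the liver form of the enzyme that admits fatty acids to mitochondria, ran from 363 to 961 (median 716) in brown and 1728 to 3940.4 (median 2463) in white libraries, without overlap, and was higher in white fat (-1.92 ± 0.13). Cpt1b, the muscle form, was listed in the brown table only, at 254 to 545 (median 389). Ucp2 was likewise higher in white fat (-1.74 ± 0.11) while Ucp3 was higher in brown fat (2.35 ± 0.13) beside Ucp1. Among cytochrome oxidase subunits, the heart and muscle forms Cox7a1 and Cox8b differed by 6.17 and 5.94, and their widely expressed counterparts Cox7a2 and Cox8a by 2.42 and 2.06. Cox7a1 ran from 6079 to 15116 (median 8535) in brown and 46.8 to 259 (median 141) in white libraries. Fabp3 rose (7.20), whereas Fabp4 and Fabp5 were at 0.20 and -0.45 and did not pass, and the sign of Fabp4 was negative when libraries were brought to the same total, left as deposited or quantile normalised (-0.0912, -0.13 and -0.0732). In the heart and muscle pairs of glucose handling, Ldhb differed by 3.27 and Ldha by 1.36, Hk2 by 1.87 and Hk1 by 0.69, which did not pass. Pdk4, an inhibitor of pyruvate dehydrogenase, differed by 4.30, more than Pdk2 (2.19) and Pdk1 (1.91). Over the list of such pairs 15 of 20 tested genes were higher in brown and 2 in white fat, against 8.6% and 11.7% of all genes. The calls of Ldha and Slc25a4 depend on scaling: under the same total, Ldha was at 1.07 (adjusted p = 0.678) and the adenine nucleotide carrier Slc25a4 at 1.03 (adjusted p = 1) instead of 1.32.

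Genes that supply fuel differed less evenly. In glycolysis and glucose uptake 13 of 17 genes were higher in brown fat and none in white, against 8.6% and 11.7% of all genes. The median was 1.87. Slc2a4, the insulin-responsive glucose transporter, differed by 1.51, and Slc2a1, the basal one, was at -0.85. Gapdh (1.90), Pkm (2.44) and Pfkl (2.47) were among those that rose. In the breakdown of branched-chain amino acids 10 of 16 genes rose, against 8.6% of all genes. Bckdha (2.29) of the branched-chain keto acid dehydrogenase led them, while Bcat2, the first enzyme of the pathway, was at -0.06 with overlapping depots. Slc25a44, the mitochondrial carrier of these amino acids, differed by 1.38.

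Fatty acid synthesis genes varied widely between animals. Of 15 genes, 7 were higher in brown and 2 in white fat, against 8.6% and 11.7% of all genes. In the brown direction 2 of the 15 kept the depots apart, where 17% of all genes did. Fasn, fatty acid synthase, ran from 95457 to 915867 (median 542255) in brown and 24034 to 192664 (median 77392) in white libraries. Its brown values were lowest in a male (animal 535) and highest in another (animal 319), and the lowest brown library lay below the highest white one. The difference was 2.39 ± 0.20 (limma adjusted p = 1.31e-05). Animal 319 had the highest brown level of 11 of the 15 genes, among them Acly, at 5786 to 192288 (median 52513), and Acaca, at 15188 to 158442 (median 70699). Acacb, the mitochondrial acetyl-CoA carboxylase, was steadier in brown fat, at 36272 to 51654 (median 40702), and differed by 3.53 ± 0.16. Fads1 and Fads2, the desaturases that make polyunsaturated fatty acids, were higher in white fat (-1.997 and -1.52).

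The signalling genes that switch on heat production split by receptor. Of 16 tested adrenergic and cyclic AMP genes, 6 were higher in brown fat and 1 in white fat, against 8.6% and 11.7% of all genes. The alpha-1 receptor Adra1a ran from 2325 to 5221 (median 3337) in brown and 246 to 517 (median 377) in white libraries (3.24 ± 0.10), and Adrb1 differed by 2.18. Adrb3, the beta-receptor of mature adipocytes, had overlapping depots, 3034 to 11954 (median 6219.6) in brown and 5509.9 to 17424 (median 9834) in white, and did not pass the over-2-fold test (-0.69 ± 0.16). Adcy5, an adenylyl cyclase, was the gene higher in white fat, at 2965 to 8929.6 (median 5634) beside 174 to 358 (median 242) in brown (-4.56 ± 0.05), while Adcy3 and Adcy6 were at 0.11 and 0.31. Gnas, Prkaca, Prkar2b and the phosphodiesterase Pde4d were higher in brown fat (2.11, 1.52, 1.37 and 2.31). Of 6 tested creatine and calcium cycling genes, 2 were higher in brown fat (Alpl and Ryr2, 1.73 and 1.53) and 2 in white fat (Ckb, brain-type creatine kinase, and Gamt, -2.37 and -1.98). Over all genes the shares were again 8.6% and 11.7%. Among factors that brown fat can secrete, Nrg4 and Cxcl14 were higher in brown (1.44 and 2.43), and Igf1 and Epdr1 in white fat (-3.06 and -2.65). Under the same total, Ryr2 (1.24, adjusted p = 0.063) and Nrg4 (1.15, adjusted p = 0.335) did not pass.

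Of 18 general adipocyte genes 3 were higher in brown and 3 in white fat, with a median of 0.11, where 8.6% and 11.7% of all genes were called. Gpd1, which makes the glycerol backbone of triglyceride, ran from 61867 to 165599 (median 116297) in brown and 7267 to 27538 (median 13534) in white libraries (2.995 ± 0.10). Adipoq, the gene of adiponectin, ran from 14296 to 22895 (median 18492) in brown and 24376 to 71684 (median 53665) in white libraries, so that the highest brown library lay just below the lowest white one, of animal 534 (-1.53 ± 0.11, limma adjusted p = 0.000638). Cfd, adipsin, was higher in white fat (-2.94 ± 0.20) with overlapping depots. Among 20 lipid droplet and lipolysis genes, Plin5 and Agpat2 rose in brown fat beside Cidea (4.06 and 2.51), Plin4 rose in white fat (-1.75), and the remaining 16 did not pass, among them the lipases Pnpla2 (0.98) and Lipe (0.27).

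**Figure D2:**
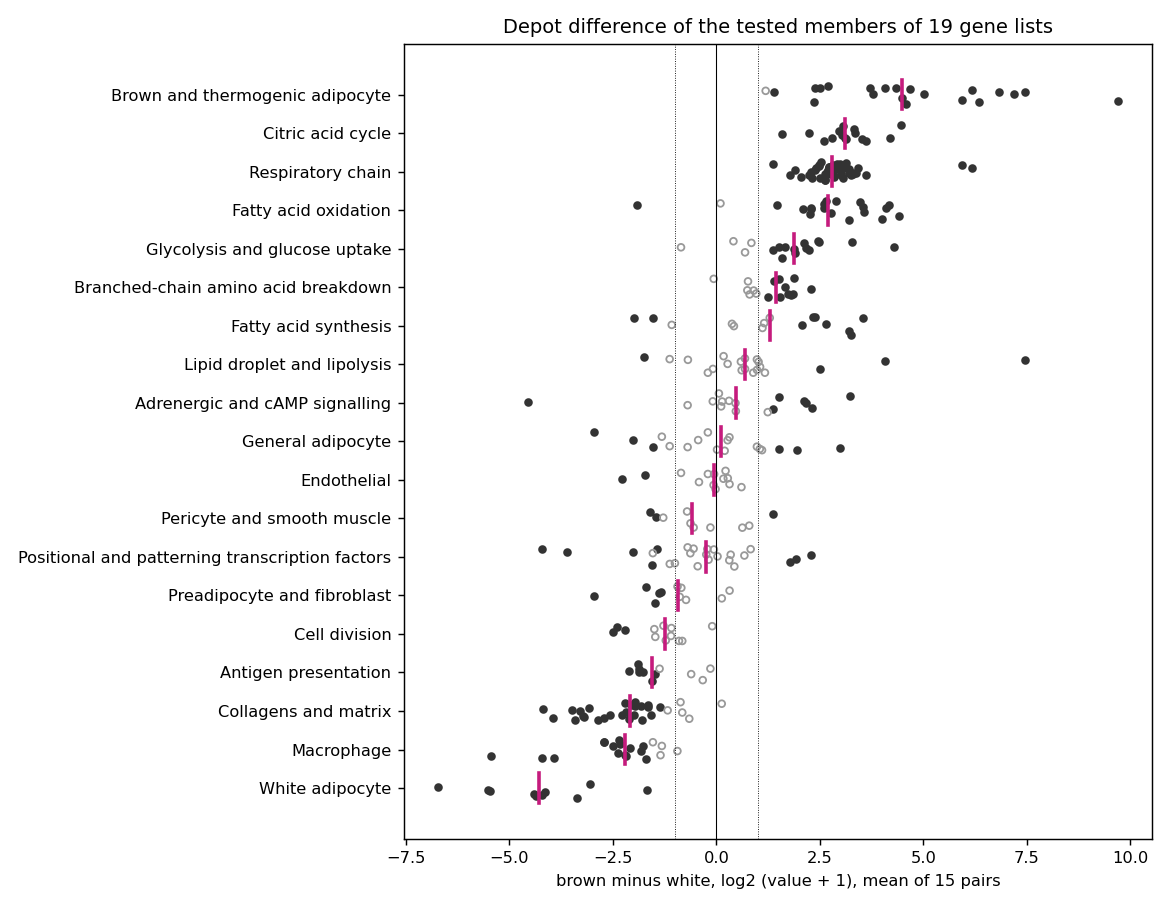
Brown minus white difference (log2, mean of 15 pairs) of each tested member of 19 gene lists, filled where the over-2-fold test was passed and open where not, with a bar at the list median and dotted lines at 2-fold. Every respiratory chain point lies to the right of the 2-fold line and every white adipocyte point to the left, and the endothelial median is -0.06.

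White fat carried its own adipocyte genes at high levels. All 10 tested white adipocyte markers were over 2-fold higher in white fat, against 11.7% of all genes, with a median of -4.28. The depots stayed apart for 9 of the 10, where 14.1% of all genes did in that direction. Agt, the gene of angiotensinogen, was in the white table only and Gpr83 in neither. The tested members include Trem2, which is also on the list of macrophage markers. Lep, the gene of leptin (chr6:29060220-29073877), ran from 766 to 6966 (median 3128) in brown and 22136 to 128642 (median 58667) in white libraries. The lowest white library (animal 613) lay above the highest brown library (animal 482), and the difference was -4.39 ± 0.16, or 21.0-fold (limma adjusted p = 1.46e-11, higher in white fat in 15 of 15 animals). Retn, resistin, and Npr3, the natriuretic peptide clearance receptor, differed by -4.35 and -3.36.

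The genes with the largest white differences were of several kinds. Sfrp5, a secreted inhibitor of Wnt signals, ran from 23.6 to 92.2 (median 48.6) in brown and 2858 to 10230 (median 4907) in white libraries and differed by -6.73 ± 0.13 (106-fold, limma adjusted p = 2.97e-15). Oxtr, the oxytocin receptor, ran from 11.4 to 121 (median 54.3) in brown and 1283 to 12793 (median 4683) in white libraries (-6.60 ± 0.21). The imprinted genes Nnat and Mest, which accompany adipocyte growth, differed by -5.51 and -5.46, and Bmp3, a bone morphogenetic protein, by -5.72. The iron carrier Trf (-5.09), the serine synthesis enzyme Psat1 (-5.04), the protease inhibitor Serpina3n (-5.41) and the collagen Col6a5 (-5.46) followed. Depots did not overlap for 10 of the 12. Pkhd1l1 overlapped by 1 female white library, animal 587, at 35.5, with the other white libraries at 377 or more (-5.57 ± 0.29).

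The other overlapping gene, Acta1, encodes skeletal muscle actin. Its brown libraries lay between 6.34 and 98.5 apart from animal 349, at 1613, and its white libraries between 1191 and 7068. The difference was -6.39 ± 0.48 (limma adjusted p = 5.32e-08). Of 15 skeletal muscle markers, Myl1 was higher in brown fat (1.33; 1.04 and adjusted p = 1 under the same total), Mylpf was in the brown table only, Actn3, Casq1 and Ryr1 in the white table only, and 9, among them Ckm and the adult myosins, in neither table. The summed level of the listed markers, 3 in brown and 5 in white fat, ran from 765 to 3108 and from 1802 to 7718. The part of muscle cells in these values was not tested.

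Matrix and stromal genes were higher in white fat. Of 30 collagen and matrix genes 25 were over 2-fold higher in white and none in brown fat, against 11.7% and 8.6% of all genes. The median was -2.10, and 24 kept the depots apart, where 14.1% of all genes did. Col15a1, a basement membrane collagen, ran from 356 to 873 (median 599.6) in brown and 5467 to 14838 (median 11824) in white libraries (-4.19 ± 0.07). Fibronectin, Fn1, differed by -3.49, the collagen VI genes Col6a1, Col6a2 and Col6a3 by -3.42, -3.29 and -1.82, and the fibrillar Col1a1 and Col3a1 by -2.72 and -2.17. Timp3, an inhibitor of matrix proteases, was at 0.13. Of 11 preadipocyte and fibroblast markers 5 were higher in white fat, against 11.7% of all genes, led by Dpp4 (-2.95) and Cd34 (-1.69). Dlk1 was in the brown table only, at 31.6 to 89.7 (median 60.9). The summed fibroblast markers, 12 in brown and 11 in white fat, ran from 6443 to 12183 and from 11203 to 17414. The part of fibroblasts in the matrix difference was not tested.

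Macrophage genes were higher in white fat with a wide spread. The 19 tested markers had a median of -2.20, while Itgax and Spp1 were in the white table only. Of the 19, 15 were over 2-fold higher in white and none in brown fat, against 11.7% and 8.6% of all genes. The count was 6 in females alone, 16 in males alone and 7 at 30 weeks alone. Mmp12, the macrophage elastase, ran from 8.29 to 173 (median 54.2) in brown and 196 to 13823 (median 1888) in white libraries (-5.45 ± 0.45). The white values were lowest in animal 319 and highest in animal 534, both males, and the latter was the highest white library for 15 of the 19 markers. Trem2 and Gpnmb, genes of lipid-laden macrophages, differed by -4.21 and -3.91. Adgre1 (F4/80) was at 190.1 to 1954 (median 424) in brown and 928 to 8211 (median 1729.5) in white libraries. The depots were apart for 5 of the 19 markers with the brown library of animal 524 and for 10 without that animal. With that animal, 14.1% of all genes were apart with white above brown. The list includes Lpl, lipoprotein lipase, which adipocytes also express and whose means were 62619 ± 14217 in brown and 155652 ± 30668 in white fat (SD, n = 15). The summed markers, 19 in brown and 21 in white fat, ran from 56571 to 103352 and from 160418 to 272818, so Lpl made up most of the sums.

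Other immune genes rested more on single animals. Of 11 antigen presentation genes 7 were higher in white fat, against 11.7% of all genes. The count was 3 to 4 when animal 339, 342, 349 or 690 was omitted and 8 without animals 349 and 524. None of the 11 passed in females alone or at 30 weeks alone, and 8 passed in males alone. Cd74, the chaperone of class II molecules, ran from 1355 to 26679 (median 2337) in brown and 5779.8 to 19292 (median 12129.7) in white libraries. The highest brown value was that of animal 524, above every white library, and the next was 8342. Of 5 tested B cell genes, the immunoglobulin genes Ighm, Igkc and Jchain were higher in white fat (-3.70, -3.42 and -3.08), though none of these passed in females alone, and Cr2 and Cd79a did not pass (-1.04 and 0.57). Of 14 T and NK cell markers, Cd4 and Thy1 were in both tables and did not pass, 6 were in the white table only and none in the brown table only. Of 12 cell division genes 3 were higher in white fat (Mki67, Top2a and Ccna2), against 11.7% of all genes, and 8 others were in the white table only. The count was 5 of 12 without animals 349 and 524, and 6 of 12 without animal 524 alone, whose brown library was the highest for 7 of them, and 7 of 12 under the same total, while none passed in females alone or at 30 weeks alone. Of 4 haemoglobin genes, which have near-identical copies, 3 were higher in white fat, but 1 in females alone and none in males alone or at 30 weeks alone, and their sums ran from 406 to 19009.7 in brown and from 3530 to 26625 in white fat.

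The median vessel gene had a difference near 0. Of 13 endothelial markers none was over 2-fold higher in brown fat and 2 were in white fat, where 8.6% and 11.7% of all genes were. The median was -0.06. The sums, of 13 markers in brown and 14 in white fat, ran from 19979 to 30768 and from 18337 to 31741. Pecam1, Cdh5 and Kdr were at -0.06, -0.02 and 0.32. The 2 higher in white fat were Lyve1 of lymphatic vessels (-2.27) and Vwf (-1.72). Among mural genes Cspg4 was higher in brown (1.37; 1.08 and adjusted p = 0.425 under the same total), and Tagln and Mylk were higher in white fat (-1.61 and -1.45).

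Of 48 transcription factors that mark body position 25 were tested, and 3 were over 2-fold higher in brown and 5 in white fat, where 8.6% and 11.7% of all genes were. The white count ran from 3 to 8 over the other scalings. Hoxc8 ran from 28.4 to 83.1 (median 47.8) in brown and 674 to 1385 (median 981) in white libraries (-4.21 ± 0.16), and Gata6 from 20.9 to 59.2 (median 36.7) and 277 to 634 (median 451) (-3.61 ± 0.09). The anterior genes Hoxa4 and Hoxa5 were higher in brown fat (2.28 and 1.93), as was the forelimb and heart factor Tbx5 (1.77). Zic1, Lhx8, Tbx15 and Shox2 were in the brown table only, Zic1 at 124 to 285 (median 162) and Lhx8 at 71.6 to 218 (median 108). The white table alone held Hoxa10, Hoxb5, Hoxb8, Hoxc9, Hoxc10, Hoxd9, Foxc2, Tcf21 and Wt1. Hoxa10 ran from 227 to 403 (median 308) in white fat of the 7 females and from 0.57 to 69.9 (median 7.39) in the 8 males. Hoxc10 ran from 120.2 to 224 (median 167) in females and 2.85 to 24.3 (median 9.50) in males, so the sexes did not overlap for either gene. In the white library of animal 350, which was left out, Hoxc10 was at 2.53.

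Genes listed in a single table add to these lists. The brown table alone held 323 genes and the white table alone 1529, of which 39 and 221 had a mean of at least 100. A gene missing from a table had been filtered out by the authors or was not detected, and since the lowest gene mean was 17.5 in the brown and 17.1 in the white table, no fold is given. In the brown table alone the highest were Slc27a2, a fatty acid transporter with acyl-CoA synthetase activity, at 1414 to 9025 (median 3534), the carboxypeptidase N subunit Cpn2 at 889 to 1968 (median 1211), and Dio2, which makes active thyroid hormone, at 193 to 4319 (median 959.9). Dio2 and Elovl3, a cold-responsive elongase at 48.6 to 2649 (median 500.5), varied more widely between animals than Cpn2 did. The fructose transporter Slc2a5 ran from 19.6 to 2718 (median 545), and Gldn, Tuba8, Lrrc15, Mmd2 and Camk2b completed the 10 such genes with the highest mean. Mmd2 was at 528 to 1813 (median 779.7) in females and 237 to 415 (median 343) in males, without overlap.

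Among genes of the white table alone, leaving out predicted and clone names, the highest were the calcium channel gene Cacna1e, at 959.6 to 3371 (median 1599), and Upk3b, a uroplakin of the mesothelial surface, at 75.2 to 2885 (median 1657). Of 12 mesothelial markers 9 were in the white table only, with Msln at 53.4 to 1397 (median 549) and Krt19 at 62.6 to 884 (median 602). In brown fat these 9 had been filtered out or were not detected. Agt, Plagl1, Slc6a13, Folh1, Mettl7b, Atp6v0d2 and C6 were, with Msln, the others of the 10 highest. Atp6v0d2, a proton pump subunit, ran from 56.7 to 641 (median 335) in females and 53.7 to 3184 (median 1040.2) in males. Of 14 epididymis and testis markers 13 were in neither table, and of 15 markers of the ovary, oviduct and uterus 10 were in neither.

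The depot difference itself differed between the sexes for 198 genes (1.57% of 12581), with the female difference above the male one for 55 (0.437%) and below it for 143 (1.14%). The larger share below 0 did not hold at 20 weeks alone, where 54 genes were above and 28 below, and it was smaller under the same total, with 49 above and 78 below. A scale factor per table cancels in this contrast. Of the 198, 90 also differed by sex within white fat and 25 within brown fat, where 4.02% and 0.755% of all genes did. The estimated sex difference was larger in white fat for 121. For 172 of the 198 it had opposite signs in brown and white fat, which picking genes by this contrast favours. Which pad was sampled in each sex and sex itself cannot be told apart in white fat. The number of genes rested on single animals: it was 85 without animal 481, 248 without animal 319, and under 133 also without 349, 482, 524, 534, 535, 587, 592 or 690.

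Foxp2, a transcription factor, ran from 181 to 375 (median 238) in brown fat of females and 134 to 279 (median 184) in males. In white fat it ran from 1.53 to 16.6 (median 9.93) in females and 53.6 to 253 (median 86.6) in males. White fat of females was below all other groups, without overlap. The depot difference was 4.81 in females and 0.88 in males, and the sexes differed by 3.98 ± 0.31 (adjusted p = 1.13e-05) in limma, a call kept under all 27 alternatives. Hoxa9 lay the other way, at 150.1 to 325 (median 217) in white fat of females and 3.84 to 80.4 (median 18.1) of males beside 10.1 to 32.6 (median 24.9) in brown fat. Its depot difference was -3.44 in females and 0.34 in males, a sex difference of -3.75 ± 0.56 (adjusted p = 0.00359) by limma. Tbx5, another positional gene, had a sex difference of -2.46.

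Col6a5 in white fat was at 190.3 to 475 (median 355) in females and 2098 to 7208 (median 3297) in males, without overlap, while the sexes overlapped in brown fat. The depot difference was -3.98 in females and -6.93 in males, and the sexes differed by 2.93 ± 0.45 (adjusted p = 0.0045) in limma. C7, a complement component, had higher values in males than in females in both depots: females and males ran from 19.1 to 52.6 (median 41.1) and 337 to 3524 (median 1321) in white fat and 19.7 to 39.1 (median 30.7) and 142 to 311 (median 259.9) in brown fat. No male library of a depot reached the female range there, and the depot difference was -0.40 in females and -2.34 in males (sex difference 1.98 ± 0.40 (adjusted p = 0.0213) by limma, 0.0551 without animal 587 and 0.346 with animal 350). Cyp1b1, a steroid and retinoid metabolising enzyme, was at 295 to 491 (median 383) in white fat of females and 919 to 1851 (median 1298) of males. Ramp1, a partner of the CGRP receptor, and Ncan, a proteoglycan, also had the larger brown minus white difference in females (2.75 ± 0.61 (adjusted p = 0.0356) and 2.23 ± 0.47 (adjusted p = 0.0294) by limma), but their calls were lost without any of 10 and 7 single animals, Ramp1 up to an adjusted p of 0.0828 and Ncan up to 0.0651.

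In the other direction, Mmp3, stromelysin, was at 149 to 342 (median 259.7) in white fat of females and 30.2 to 117 (median 77.5) of males, and its depot difference was -1.11 in females and 1.03 in males. The brown gene Kng2 differed by 4.78 in females and 6.71 in males (sex difference -1.94 ± 0.25 (adjusted p = 0.00215) by limma), with white levels of 67.7 to 137 (median 98.1) in females and 17.2 to 58.6 (median 37.2) in males. Sbsn, suprabasin, Plekha6 and the receptor kinase Ret had negative depot differences in both sexes, further from 0 in females (sex differences -1.84, -1.77 and -1.68). Pkia, an inhibitor of protein kinase A, differed by -1.45 ± 0.31 (adjusted p = 0.0321) in limma and lost the call without any of 8 single animals. Among the listed genes, Col1a1 had a depot difference of -3.40 in females and -2.01 in males and Npr3 of -3.94 in females and -2.79 in males, while Lcn2, lipocalin 2, lay on the side of Foxp2, at 0.51 in females and -2.66 in males. Ucp1 differed by 9.23 in females and 10.08 in males, and its sex difference of -0.74 ± 0.90 (adjusted p = 0.739) did not pass in limma.

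**Figure D3:**
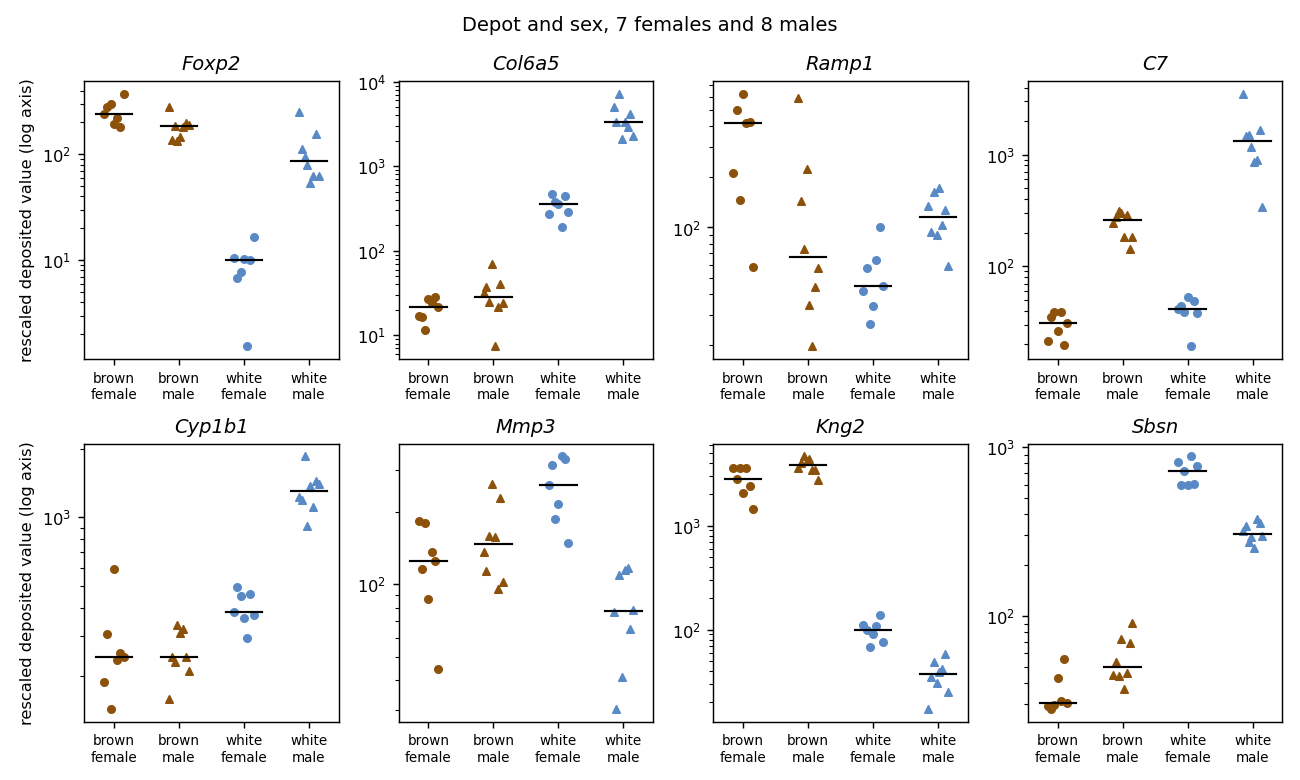
Values of 8 genes in brown (brown symbols) and white fat (blue symbols) of 7 females (circles) and 8 males (triangles), with the rescaled deposited value on a log axis and a bar at the median. For Foxp2 the white libraries of females lie at 16.6 or below and every other library at 53.6 or above.

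Between 20 and 30 weeks the depot difference changed for no gene at an adjusted p under 0.05 in limma, of 12581 tested, and 392 genes had an unadjusted p under 0.05. For Ucp1 the difference at 30 minus 20 weeks was -1.49 ± 0.90 and for Lep 0.50 ± 0.32. No alternative that was run made a call for age.

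The depot difference was then set against that of LG/J mice on the highfat diet (16 pairs), with the 4 tables rescaled together. Of 12292 genes, 815 differed (6.63%), 392 (3.19%) with a larger brown minus white value on the low-fat diet and 423 (3.44%) with a smaller one. Under the same total the counts were 386 and 286, and as deposited 739 and 308, so which direction held more genes depends on the scaling. Without the pairing 422 differed, 533 differed without low-fat animal 481, and 1449 without high-fat animal 351. Ucp1 was at 9.68 against 9.35 (0.37 ± 0.69 (adjusted p = 0.788) in limma). By number, the lists with the most members below 0 were brown markers (5 of 21) and branched-chain amino acid breakdown (5 of 16), against 3.44% of all genes. The shares were larger for brown adipose secreted factors (3 of 9) and creatine and calcium cycling (2 of 6). Fatty acid synthesis was the list with the most members above 0, 5 of 15, against 3.19% of all genes, and 3 without the pairing. Scd1, stearoyl-CoA desaturase, had a depot difference of 1.11 against 0.03 on the high-fat diet (1.07 ± 0.28 (adjusted p = 0.0234) by limma), with white means of 417907 ± 184788 and 912779 ± 273901 (SD). Me1, Slc25a1, Fads1 and Fads2 were the other members called, at 0.82, 0.90, 0.63 and 0.99, while Fasn was at 0.52 ± 0.38 (adjusted p = 0.415) by limma.

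Insig1, which holds back the sterol and lipid regulators of the SREBP family, differed by 1.61 against 0.13 (1.48 ± 0.27 (adjusted p = 0.00165) by limma). Its brown means were 10779.8 ± 4784 and 10768 ± 4394 (SD), close to each other, and its white means 3367 ± 831 and 9913 ± 3556. Ubd, an interferon-responsive ubiquitin-like gene, Rab6b, Lctl, Cxcl9 and Gadd45b also had the larger value on the low-fat diet (2.89, 2.02, 1.64, 1.51 and 1.45). In the other direction, Ffar4, a receptor for long-chain fatty acids, differed by 0.56 against 2.22 (-1.64 ± 0.28 (adjusted p = 0.000905) by limma), with brown means of 484 ± 164 and 1283 ± 777. Apold1, Slc25a34, Cyp2e1 and Celsr2 also had the smaller value on the low-fat diet (-1.33, -1.31, -1.26 and -1.22). Cxcl9, Apold1 and Slc25a34 lost their calls when some single animals of either diet were omitted, and Cxcl9, Slc25a34 and Cyp2e1 without the pairing.

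Against SM/J mice on the same diet (16 pairs) far more genes differed, 4143 of 12139 (34.1%), with 1956 (16.1%) above and 2187 (18%) below 0. That balance depends on the scaling: 3740 were above and 1379 below 0 under the same total, and 4971 above and 1155 below as deposited. The submitters' processing notes name the mm10 build for samples of both strains, and the part of sequence differences between strains in these levels was not tested. Of 13 endothelial markers 12 had a smaller brown minus white value in LG/J, where 18% of all genes did. Kdr was at 0.32 against 1.24 (-0.92 ± 0.10 (adjusted p = 2.82e-08) by limma), and its white means were 2825 ± 603 in LG/J and 1843 ± 384 in SM/J (SD). Pecam1, Cdh5 and Flt1 differed by -0.48, -0.95 and -1.14. Lep had a depot difference of -4.36 against -3.44 (-0.96 ± 0.19 (adjusted p = 0.000295) by limma), with brown means of 3011 ± 1487 and 5949 ± 2421. Ucp1, at 9.68 against 8.79, did not pass (0.89 ± 0.62 (adjusted p = 0.282) by limma). Of 48 respiratory chain genes 8 were above 0, near the 16.1% of all genes, and none was below 0, where 18% of all genes were.

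Rgs2, a brake on G-protein signals, had a larger brown minus white value in LG/J by 2.85 ± 0.35 (adjusted p = 1.82e-07) in limma, its brown means being 3756 ± 2103 in LG/J and 644 ± 276 in SM/J. Gpt2, mitochondrial alanine aminotransferase, was at -3.57 against -1.04 (-2.55 ± 0.22 (adjusted p = 4.36e-10) by limma), with brown means of 296 ± 48.2 and 4156 ± 1056. Lmo1, Fez1 and Cbfa2t3 also had the smaller value in LG/J (-2.996, -2.74 and -2.60), and Ripor2, Fsd2 and Il17re the larger one (2.54, 2.47 and 2.42). C4a, Aldh1a7 and H2-Q10 belong to families of near-identical genes, so their differences (4.19, 3.19 and -3.56) are uncertain. Acta1 differed by -3.99, with brown means of 132 ± 381 in LG/J and 1322 ± 1496 in SM/J.

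**Figure D4:**
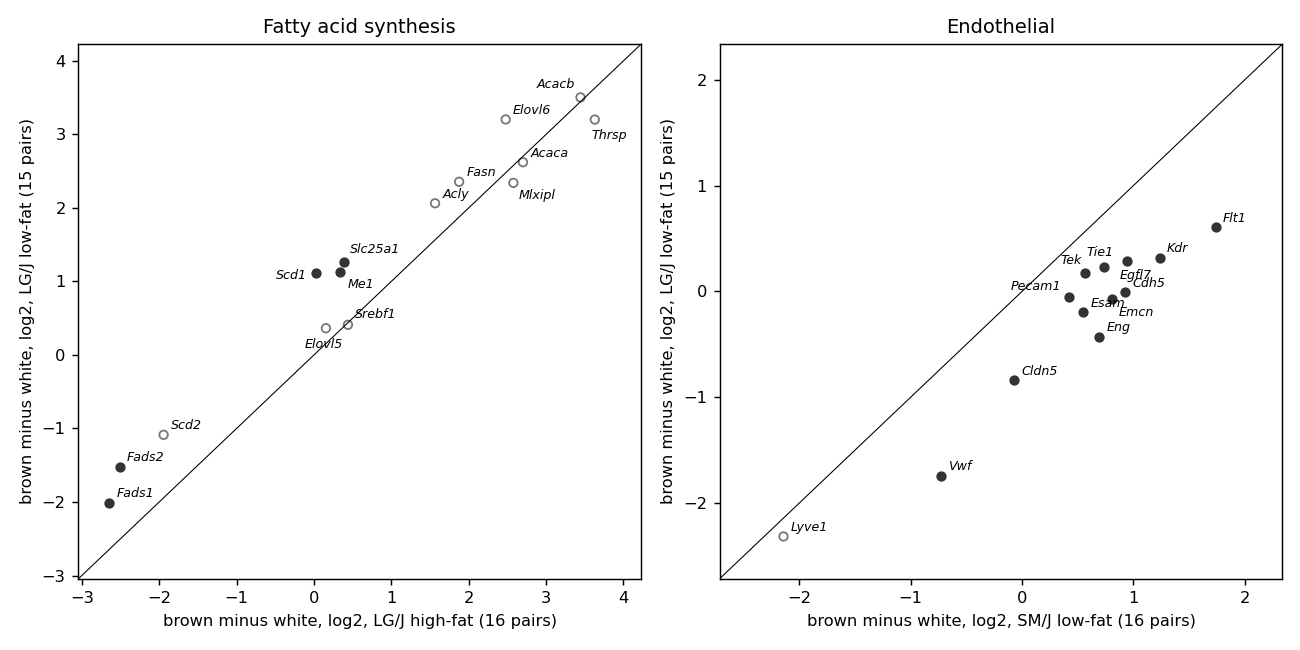
Depot difference (brown minus white, log2) of LG/J low-fat mice on the vertical axis against that of LG/J high-fat mice for fatty acid synthesis genes (left) and of SM/J low-fat mice for endothelial genes (right), filled where the difference between the mouse groups passed the test, with the line of equal values. In the right panel 12 of 13 genes passed and lie below the line, and in the left panel 5 of 15 passed and lie above it.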

How the data were processed

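RNA was sequenced from flash-frozen brown and white fat as ribosomal-depleted total RNA, per the labels' protocols. The submitters' processing notes name STAR 2.6.0c, edgeR and the mm10 build. The deposited values, a signal per gene, are fractional normalised counts that the authors scaled and filtered table by table. Whole reads could not be recovered, so the depth in reads is unknown. Genes of the X, Y and mitochondrial chromosomes are not analysed here.

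Libraries were divided by the median ratio to the mean library over genes in both tables. limma 3.58.1 (R 4.3.3) was run on the 15 within-animal differences of log2(value + 1) with centred sex and age terms, 12 residual degrees of freedom and a mean-variance trend. Tests were two-sided, with Benjamini-Hochberg adjustment over all genes tested and a threshold of 0.05. The over-2-fold test took a log2 minimum of 1. The fit was tested on simulated data. The replicates are separate mice, per the labels. The pairing comes from the animal numbers in the column names.

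Members and gene lists were chosen with earlier results of these data known. Named genes were the 12 largest differences in each direction with a mean of at least 500, up to 5 members with the largest difference in each list, all related protein pairs, the 6 largest in each direction with a mean of at least 100 for sex and the comparisons between mouse groups, and the 10 highest in a single table. Other list members named were chosen after their values were seen, as were the NRF1 and C/EBP motifs. Alternatives were another pseudocount, low-value filter, scaling and fit, each sex or age alone, and omitted animals. Some genes that this rule names are not reported here.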

Additional observations from a re-analysis of the deposited data

Results flagged for a closer look

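In 78 groups of 4 pairs (26 genes, split by sex and age), 3 held an animal far from the other pairs of its group, and chance alone gives about 1 in 20. Mest was at -5.73 in animal 342, where the other females of 30 weeks lay between -6.27 and -6.23. Perm1 was at 4.83 in animal 612, where the other males of 20 weeks lay between 5.11 and 5.12. Myo5c was at 7.11 in animal 482, where the other males of 30 weeks lay between 4.85 and 5.13.

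The depot difference differed between females and males by limma's interaction term for 12 named genes. Female minus male, it was 3.98 for Foxp2, 2.93 for Col6a5, 2.75 for Ramp1, 2.23 for Ncan, 1.98 for C7 and 1.72 for Cyp1b1. It was -2.16 for Mmp3, -1.94 for Kng2, -1.84 for Sbsn, -1.77 for Plekha6, -1.68 for Ret and -1.45 for Pkia. Of these 12, 8 kept the call without each single animal, and 1 (Foxp2) kept it in every alternative run.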

How the results depend on the processing

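The 24 genes named for the largest depot differences had been picked among those passing the over-2-fold test in the main fit. They also passed it in every alternative run, most of which share libraries with that fit. Omitting single animals moved the genes called for the depot difference between 10060 and 10248, those over 2-fold between 2461 and 2723, those with a sex difference between 85 and 248, those for age between 0 and 0, those differing from LG/J high-fat mice between 533 and 1449, and those differing from SM/J mice between 3893 and 4343. The sex count was 127 under the same total, 82 at 20 weeks alone, 9 at 30 weeks alone and 91 without animals 349 and 524, an alternative chosen after seeing the data. Genes in a single table numbered 93 with a mean of at least 200 and 647 with at least 50, against 260 with at least 100. Fabp4 reversed sign under the same total (-0.0912), as deposited (-0.13) and with quantile normalisation (-0.0732), and Cd4 in females alone (0.0879). The causes were not tested. Without the pairing (no replicate block) 5066 genes were higher in brown and 5183 in white, and 422 differed from LG/J high-fat mice. Deviations from the mean of the same depot, sex and age correlated between same-numbered libraries at -0.27 to 0.45 (median 0.043), above 0.1 in 7 of 15 pairs. Among only the 3 or 4 white libraries of the same sex and age, 8 of 15 brown libraries correlated best with their own number. The depth in reads is unknown.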
